A study of Homo sapiens with 18 samples.

Results

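The transcriptional response of K562 cells to TNFalpha was read from 6 two-colour Agilent arrays out of the 18 in the series. They were selected by their titles, which set TNFalpha-treated against untreated cells. K562 is an established human line grown from a chronic myelogenous leukaemia. All cells had been thawed 10 days earlier. The treated cells received 10 ng/mL TNFalpha 2 h after the start and were harvested at 6 h, so the cytokine acted for 4 h, while the untreated cells received water in its place. Both sides of the comparison also carried DMSO, the vehicle of heteronemin, from 0 h. Each of 3 biological replicates was hybridised on 2 arrays with the dyes exchanged, which were averaged, so n = 3. The 12 other arrays compared heteronemin (6 µM from 0 h, with no TNFalpha) with untreated cells, and cotreated cells (heteronemin at 0 h, then TNFalpha) with TNFalpha-treated cells, and serve here for reference values.

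TNFalpha is an inflammatory cytokine that binds the receptors encoded by TNFRSF1A and TNFRSF1B. The receptor complex activates the IkB kinases, which mark the IkB inhibitors for destruction and so release NF-kB, a family of dimeric transcription factors. NF-kB then switches on chemokines, adhesion molecules and survival genes together with its own inhibitors, among them IkBalpha (NFKBIA) and A20 (TNFAIP3), which shut the signal down again. In leukaemic cells the same pathway is studied for its part in survival and inflammation.

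The values are log2 ratios of TNFalpha-treated over untreated cells, so 1 stands for a 2-fold higher signal and 0 for no difference. Over the 18334 genes the SD of the averaged ratios was 0.141 in replicate 1, 0.134 in replicate 2 and 0.135 in replicate 3, and the medians of the 6 arrays lay between −0.0072 and 0.0048. Replicate 1 stood apart from the others. Across genes, the ratios of replicates 2 and 3 had a correlation of 0.609, against 0.138 for replicates 1 and 2 and 0.133 for replicates 1 and 3. Genes of 1 array share RNA and hybridisation, so these figures are descriptions only. The results that rest on replicate 1 are therefore given with and without it. A ratio carries no level, so K562 identity could not be checked against markers, and the signal behind each ratio is unknown. In RNA from a whole culture, a change in a few cells and a smaller change in all cells cannot be told apart.

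TNFalpha gave a short list of strongly higher transcripts and no matching list of lower ones. At least 1.5-fold higher (a log2 ratio of 0.585 or more) were 37 genes in replicate 1 (0.202% of all genes), 56 in replicate 2 (0.305%) and 52 in replicate 3 (0.284%). Past that fold in all 3 replicates were 9 genes (0.0491%), and 7 of these were over 2-fold in all of them (0.0382%). By pairs, 13 genes passed it in replicates 1 and 2 (0.0709%), 9 in replicates 1 and 3 and 37 in replicates 2 and 3 (0.202%). The 9 genes are NFKBIA, LTB, IER3, BCL3, CD83, NINJ1, TNFAIP3, KREMEN2 and ZC3H12A. No gene was 1.5-fold lower in every replicate (0%). In single replicates 48 genes (0.262%), 8 genes (0.0436%) and 14 genes (0.0764%) were that low, and 3 of them, the histone genes H4C2, H4C4 and H4C13, in more than 1 replicate.

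In the limma fit over all 3 comparisons none of the 18334 genes passed an adjusted p of 0.05 (0%), and the smallest adjusted p was 0.0567, for BCL3. At an unadjusted p under 0.05 there were 173 higher genes (0.944%) and 142 lower genes (0.775%). Fitted on the TNFalpha arrays alone, limma called 6 genes (0.0327%), all higher. They were NFKBIA (adjusted p = 0.0156), LTB (0.0174), ZC3H12A (0.0190), ADAM8 (0.0316), TNFAIP3 (0.0360) and NINJ1 (0.0485). Without replicate 1 the pooled fit called 17 higher genes (0.0927%), in order of size CXCL1, CD69, IER3, PLAU, CXCL8, CXCL2, CD83, BCL3, CXCL3, ICAM1, NFKBIZ, RGS16, JUNB, IL6, SDC4, GADD45B and TIFA. Of the 9 genes past 1.5-fold in every replicate, this fit called IER3, CD83 and BCL3 only. Without replicate 3 it called RELB and KREMEN2 (0.0109%). Replicates were left out of the same ratios that are tested, so these calls are descriptions only. Single replicates are therefore shown for most genes described. ADAM8, a membrane protease, was at 0.73, 0.63 and 0.55, and TIFA, an adaptor that binds TRAF6, at 0.22, 0.95 and 0.87.

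**Figure D1:**
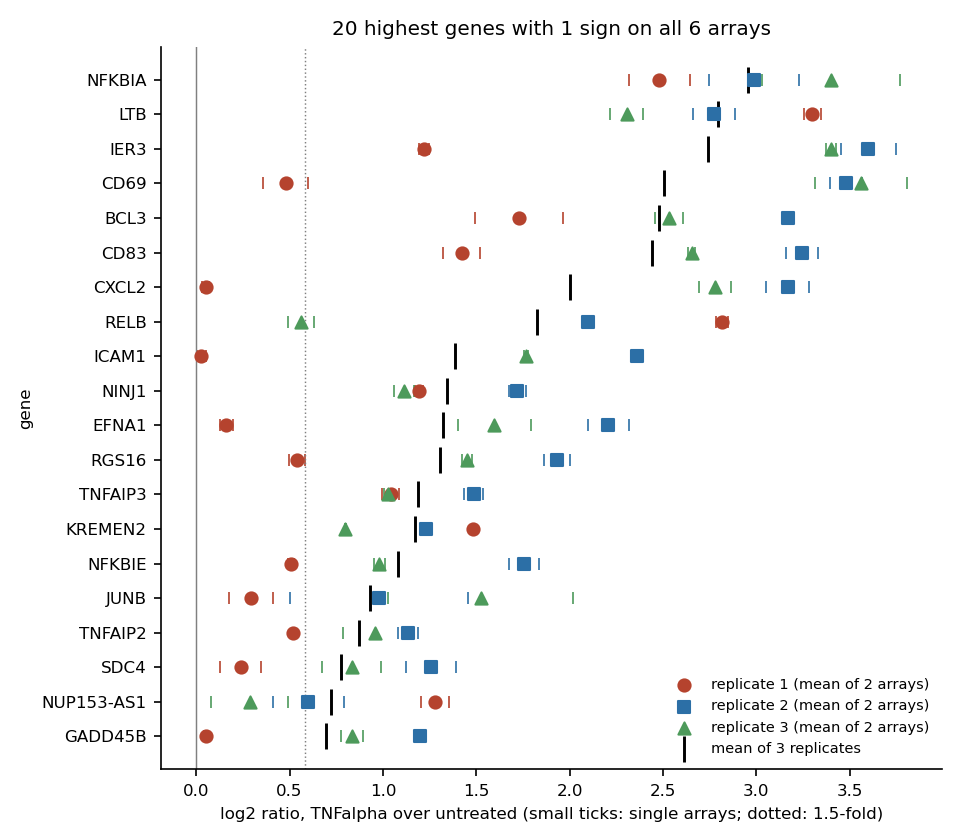
The log2 ratio of TNFalpha-treated over untreated cells (x axis) is plotted for the 20 highest genes that were above 0 on all 6 arrays (y axis). Large symbols are the 3 biological replicates, small ticks the single arrays and black bars the means. NFKBIA and LTB were above 2 in every replicate, whereas CXCL2, ICAM1 and EFNA1 were close to 0 in replicate 1 and above 1.5 in replicates 2 and 3.

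Among the inhibitors of NF-kB, NFKBIA and BCL3 were over 2-fold higher in every replicate, though the size of their ratios varied. NFKBIA encodes IkBalpha, the inhibitor that keeps NF-kB in the cytosol. Its ratio was 2.48 in replicate 1, 2.99 in replicate 2 and 3.40 in replicate 3, and the single arrays ran from 2.32 to 3.77. All 6 arrays put it above 2 on this scale, and replicate 1 was the lowest. BCL3, a nuclear IkB protein that acts with p50 and p52 dimers, was at 1.73, 3.17 and 2.53 in replicates 1 to 3. NFKBIE, which encodes IkBepsilon, was lower in replicate 1 at 0.51 than in replicates 2 and 3 at 1.76 and 0.98. NFKBIZ, an inducible nuclear IkB protein that works as a cofactor at secondary target genes, was at 0.08 in replicate 1 but at 2.05 and 1.93 in the others. The remaining IkB genes gave small ratios, with NFKBIB between −0.07 and 0.21 and NFKBID between −0.06 and 0.21.

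TNFAIP3 encodes A20, a ubiquitin-editing enzyme that ends signalling at the receptor complex. It was at 1.04, 1.49 and 1.03, with similar ratios in all replicates. Its 2 features differed in size, with means of 0.37 and 2.01, and the higher one was between 1.73 and 2.53 in every replicate. ZC3H12A encodes Regnase-1, an RNase that degrades inflammatory mRNAs. It had the closest replicates of the 9 genes, with 0.60, 0.71 and 0.62. Partners of A20 stayed near 0: TNIP1 was between 0.04 and 0.21, TAX1BP1 between −0.15 and −0.02 and ITCH between 0.01 and 0.06. Across the 16 inhibitors and A20 network genes, all measured, 13 means were above 0, 4 genes were past 1.5-fold in every replicate, and the median was 0.11 against −0.00053 for all genes. At an unadjusted p under 0.05, 7 of the 16 were higher and 0 lower. Over all genes 49.54% of the means were above 0, and at that level 0.944% were higher and 0.775% lower. The lists were drawn up with results of these arrays known, so such counts here and below are descriptions only.

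For these feedback genes the promoter windows of RefSeq (GRCh38.p14, 250 bases before to 50 after the annotated start) were searched on both strands for the 10-letter kB consensus, the DNA element that NF-kB dimers bind. It occurs in 2958 of 27305 such windows (10.83%) and in 1798 of the 14411 windows of genes measured here (12.48%). The stretches below are shown because they carry the match in genes that were high in every replicate. They read 5′ to 3′ on the gene's strand, and capitals mark the match.
NFKBIA, chr14:35404796-35404855, minus strand: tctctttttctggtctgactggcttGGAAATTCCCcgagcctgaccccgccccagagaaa
TNFAIP3, chr6:137867167-137867238, plus strand: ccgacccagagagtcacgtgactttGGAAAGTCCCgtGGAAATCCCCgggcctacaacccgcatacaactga
LTB, chr6:31582477-31582536, minus strand: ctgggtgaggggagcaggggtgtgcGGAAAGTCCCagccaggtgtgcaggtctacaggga
BCL3, chr19:44748700-44748729, plus strand: ccggctgcagGGGAAGTCCCggcgcccggc
The match began 81 bases before the start of NFKBIA and 86 bases before that of LTB, which had another match 39 bases after its start. TNFAIP3 had 2 matches, at 67 and 55 bases before the start, with 2 bases between them. In BCL3 the match lay at 3 bases after the start. A match is a string of letters and was not tested as a binding site. Of the 9 genes high in every replicate 7 had a window in the table, and 4 of the 7 held a match. An AP-1 element (TGANTCA) was in 0 of the 7, against 5.53% of the windows of measured genes. A TATAAA box was in 2 of the 7, against 6.27%.

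Of the NF-kB subunits, RELB, NFKB1 and NFKB2 were higher in replicates 1 and 2 than in replicate 3, and REL and RELA were not. RELB, the transactivating partner of p52 in the alternative pathway, was at 2.82, 2.10 and 0.56. NFKB1, which encodes the p105 precursor of p50, was at 0.62, 0.56 and 0.00. Its 10 features carry the same transcript record. In replicate 3 they read between 0.16 and 0.23 on one array and between −0.24 and −0.15 on the dye-exchanged one, so the 2 arrays differed in sign. NFKB2, the precursor of p52, was at 0.46, 0.28 and 0.11. REL, a transactivating subunit prominent in lymphoid cells, had its highest ratio in replicate 2, with 0.09, 0.71 and 0.27. RELA, which encodes p65, the main transactivating subunit, lay between −0.16 and 0.08. Thus 4 of the 5 subunits had an unadjusted p under 0.05 and a positive mean (against 0.944% of all genes). None passed 1.5-fold in every replicate (against 0.0491%).

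The window of NFKB2 held no kB match. A kB match was present in that of NFKB1, shown for comparison with the inhibitors.
NFKB1, chr4:102501285-102501344, plus strand: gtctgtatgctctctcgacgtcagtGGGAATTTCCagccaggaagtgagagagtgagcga
It began 49 bases before the start.

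Components of the receptor complex and of the kinase cascade gave small ratios. Of 29 listed genes 25 were measured, and their means ran from −0.19 to 0.18 with a median of 0.0026. TNFRSF1A, the main receptor, was at −0.10, −0.01 and −0.08, and TNFRSF1B, the second receptor, was between −0.06 and 0.04. The kinase genes CHUK and IKBKB, which encode IKKalpha and IKKbeta, were between −0.06 and 0.22 and between −0.09 and 0.08. The highest mean belonged to CASP10, an initiator caspase, with 0.08, 0.21 and 0.24. BIRC2, the ubiquitin ligase cIAP1, was at 0.26, 0.23 and 0.01. These 2 genes were the only ones of the 25 with an unadjusted p under 0.05. Over all genes 0.944% were higher and 0.775% lower at that level. TRAF1, often used as an NF-kB target, lay between −0.00 and 0.06.

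The chemokine CXCL1, a neutrophil attractant, had the largest ratio of all 18334 genes and the widest range between replicates. It was at −0.04 in replicate 1, 6.38 in replicate 2 and 6.49 in replicate 3. The 2 arrays of replicate 1 read 0.03 and −0.11, while the 4 others ran from 6.21 to 6.65, so no array lay between. CXCL8, which encodes interleukin-8, was at 0.00, 3.59 and 2.95. CXCL2 was at 0.05, 3.17 and 2.78, and CXCL3, a close relative, at −0.19, 2.73 and 2.73. CCL2, which attracts monocytes, was at 0.01, 1.45 and 1.07, and its 10 features lay between −0.08 and 0.08 in replicate 1. These 5 genes thus lay between −0.19 and 0.05 in replicate 1 and were over 2-fold in the others.

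Over all 3 replicates these chemokines did not pass in limma: CXCL1 had a mean of 4.28 ± 3.74 (SD, n = 3; adjusted p = 1.00) and CXCL8 one of 2.18 ± 1.91 (adjusted p = 1.00). Without replicate 1, and with the spread pooled over the comparisons, CXCL1 was at 6.43 (limma adjusted p = 0.000192), CXCL8 at 3.27 (0.000764), CXCL2 at 2.97 (0.00148) and CXCL3 at 2.73 (3.43e-05). CCL2 was not among the 17 genes called in that fit. It rests on replicates 2 and 3 only. Replicate 1 stood apart in these same ratios, so leaving it out favours genes that were flat in it. These p-values are therefore descriptions and no independent support. The other 18 of the 23 measured chemokines on the list did not reach 1.5-fold higher in any replicate, including CXCL10 at 0.01, 0.31 and 0.07, CCL4 at 0.13, 0.37 and 0.07, CCL20 between 0.00 and 0.12 and CCL5 between 0.02 and 0.13. CCL1, a chemokine outside the list, was at 0.90, −0.05 and 0.03. At an unadjusted p under 0.05, 4 of the 23 were higher (against 0.944% of all genes) and 0 lower (against 0.775%). The list's median was 0.05.

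The windows of CXCL1, CXCL2 and CXCL3, which lie near each other on chromosome 4, hold the same 11 letters at nearly the same distance from the start and are printed for that likeness.
CXCL1, chr4:73869289-73869349, plus strand: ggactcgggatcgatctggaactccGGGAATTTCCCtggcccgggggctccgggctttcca
CXCL2, chr4:74099238-74099298, minus strand: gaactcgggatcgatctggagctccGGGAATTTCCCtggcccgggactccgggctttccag
CXCL3, chr4:74038733-74038793, minus strand: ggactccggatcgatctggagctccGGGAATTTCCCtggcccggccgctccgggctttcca
The capitals hold 2 overlapping matches to the kB consensus, which begin 79 and 78 bases before the start in CXCL1 and CXCL3 and 78 and 77 bases before it in CXCL2. The transcripts of the 3 genes are closely related too, and cross-hybridisation between their features was not tested. Among the genes that were 1.5-fold higher in replicates 2 and 3 but not in replicate 1, 24 of 28 had a window, and 11 of the 24 (45.83%) held a kB match. The windows of CXCL8, ICAM1, PLAU, EFNA1 and RGS16, which belong to this set, held no match. For genes past that fold in replicate 1 only, it was 7 of 20 windows (35.0%) out of 24 genes. Both sets were chosen on the ratios, and these shares are descriptions beside the 12.48% of all measured genes.

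**Figure D2:**
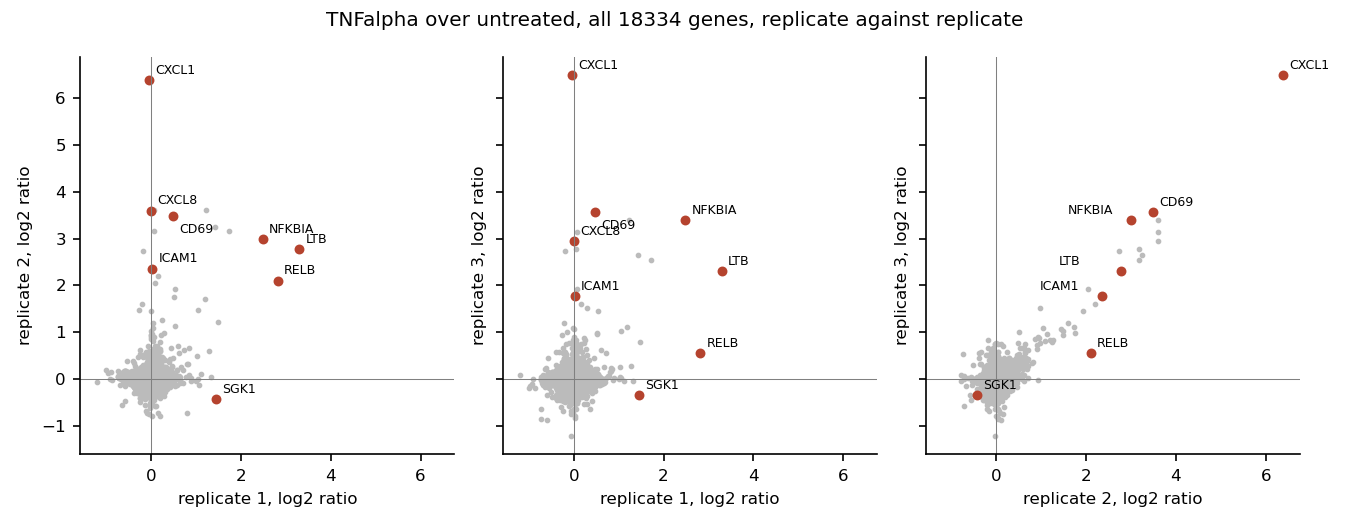
Each point is 1 of 18334 genes, with its log2 ratio in one replicate on the x axis and in another on the y axis, and the labelled genes are marked in red. CXCL1, CXCL8 and ICAM1 lie on the zero line of replicate 1 at high values of replicates 2 and 3, NFKBIA and LTB are high in all panels, and RELB and SGK1 are higher in replicate 1 than in replicate 3.

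Among cytokines, LTB led. It encodes lymphotoxin beta, a membrane-bound member of the TNF family, and was at 3.30, 2.77 and 2.30, the highest of the 9 genes in replicate 1. IL6, an acute-phase cytokine, was at −0.01, 1.03 and 1.09. CD70, the ligand of CD27, and TNFSF10, the death ligand TRAIL, were highest in replicate 1 with 0.83 and 0.81. In replicates 2 and 3 CD70 was at 0.33 and 0.24 and TNFSF10 at 0.33 and 0.15. TNFSF10 was above 0 on all 6 arrays, with 11 features. LTA, the neighbour and relative of TNF, was between −0.06 and 0.32, and IL1B between 0.02 and 0.25. Of 32 listed genes 29 were measured, 21 with a positive mean, 6 with an unadjusted p under 0.05 (all higher), and 1 past 1.5-fold in every replicate. Over all genes these shares were 49.54%, 0.944% and 0.0491%.

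TNF itself showed how a gene's value depends on its features. The mean over its 11 features was 0.04, 0.48 and 0.32. One feature read 0.09, 2.02 and 1.66, while the other 10 had means between 0.11 and 0.24. All 11 carry the same transcript record, and which of them reports the TNF transcript best was not tested. The window of TNF held no kB match, while one lies 73 bases before the start of IL6.
IL6, chr7:22727102-22727161, plus strand: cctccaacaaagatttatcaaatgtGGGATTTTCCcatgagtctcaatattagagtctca

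**Figure D3:**
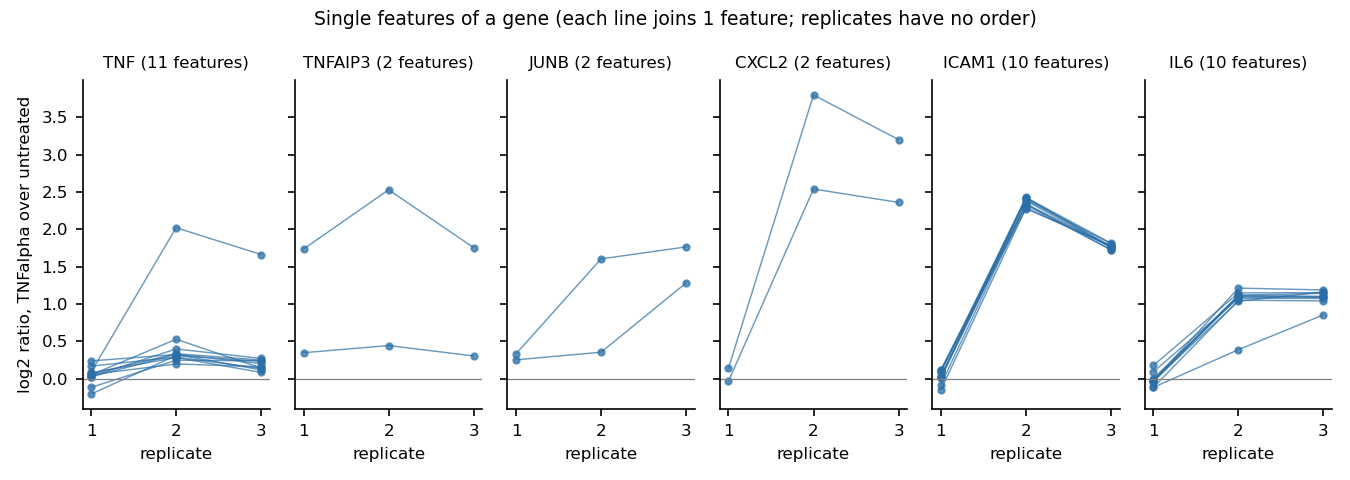
The log2 ratio (y axis) is shown for single features of 6 genes in replicates 1, 2 and 3 (x axis), with a line for each feature. The 10 features of ICAM1 and 9 of the 10 of IL6 run together, 1 of the 11 TNF features stands above the rest in replicates 2 and 3, and the 2 features of TNFAIP3 differ in size in every replicate.

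Among surface genes of activation and adhesion were 3 of the 9 genes that passed 1.5-fold in every replicate. CD83, a marker of activated dendritic cells and lymphocytes, was at 1.42, 3.24 and 2.65. NINJ1, an adhesion protein that also takes part in membrane rupture, was at 1.20, 1.72 and 1.11. KREMEN2, a receptor for Dickkopf proteins in the Wnt pathway, was at 1.48, 1.23 and 0.80 with its highest value in replicate 1. CD69, an early activation antigen, was at 0.48, 3.48 and 3.56, with each of its 10 features above 3 on all arrays of replicates 2 and 3. ICAM1, the ligand of leukocyte integrins, was at 0.03, 2.36 and 1.77. SDC4, a heparan sulphate proteoglycan, was at 0.24, 1.26 and 0.83, and TNFRSF9, the costimulatory receptor 4-1BB, at 0.07, 0.91 and 0.65. The 2 features of SDC4 differed, with means of 0.12 and 1.43. FAS, the death receptor, was higher in replicate 1 alone, with 0.57, 0.01 and 0.02. The endothelial adhesion genes VCAM1 and SELE stayed between −0.18 and 0.07. All 28 genes of the list were measured, 21 had a positive mean, and 8 had an unadjusted p under 0.05 and were higher. Over all genes these shares were 49.54% and 0.944%.

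Survival genes and secreted enzymes included IER3, an early-response regulator of apoptosis, at 1.22, 3.60 and 3.40. PLAU, the urokinase plasminogen activator, was at 0.06, 3.60 and 3.14 over 10 features. TNFAIP2, a cytoskeletal protein named for its induction by TNFalpha, was above 0 on all arrays with 0.52, 1.13 and 0.96. GADD45B, a stress sensor that restrains JNK signalling, was at 0.05, 1.20 and 0.83, and its 2 features had means of 0.37 and 1.02. PIM3, a survival kinase, was at 0.06, 0.64 and 0.75. Several genes that are NF-kB targets in other cells had small ratios: SOD2 was between 0.01 and 0.20, BCL2A1 between 0.01 and 0.06, PTGS2 between −0.02 and 0.05, MMP9 between −0.02 and 0.07 and CFLAR between −0.00 and 0.15. Of 30 listed genes 28 were measured, 21 had a positive mean and 5 an unadjusted p under 0.05 with a higher ratio. Over all genes these shares were 49.54% and 0.944%.

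Taken over the inhibitors, subunits, chemokines, cytokines, surface genes and effectors, 129 of 135 listed genes were measured. They include all 9 genes past 1.5-fold in every replicate (0.0491% of all genes) and 25 of the 37 that passed it in both replicates 2 and 3 (0.202%). Above 0 on all 6 arrays were 26 of the 129, against 295 of 18334 (1.61%), and below 0 on all 6 arrays 0 of the 129, against 232 (1.27%). At an unadjusted p under 0.05 they held 34 higher genes, against 0.944% of all genes, and 0 lower ones, against 0.775%. The median over the 129 was 0.05, so most members of these groups had ratios close to 0. The lists were drawn up with results of these arrays known, which means that these counts describe them and are no independent support.

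**Figure D4:**
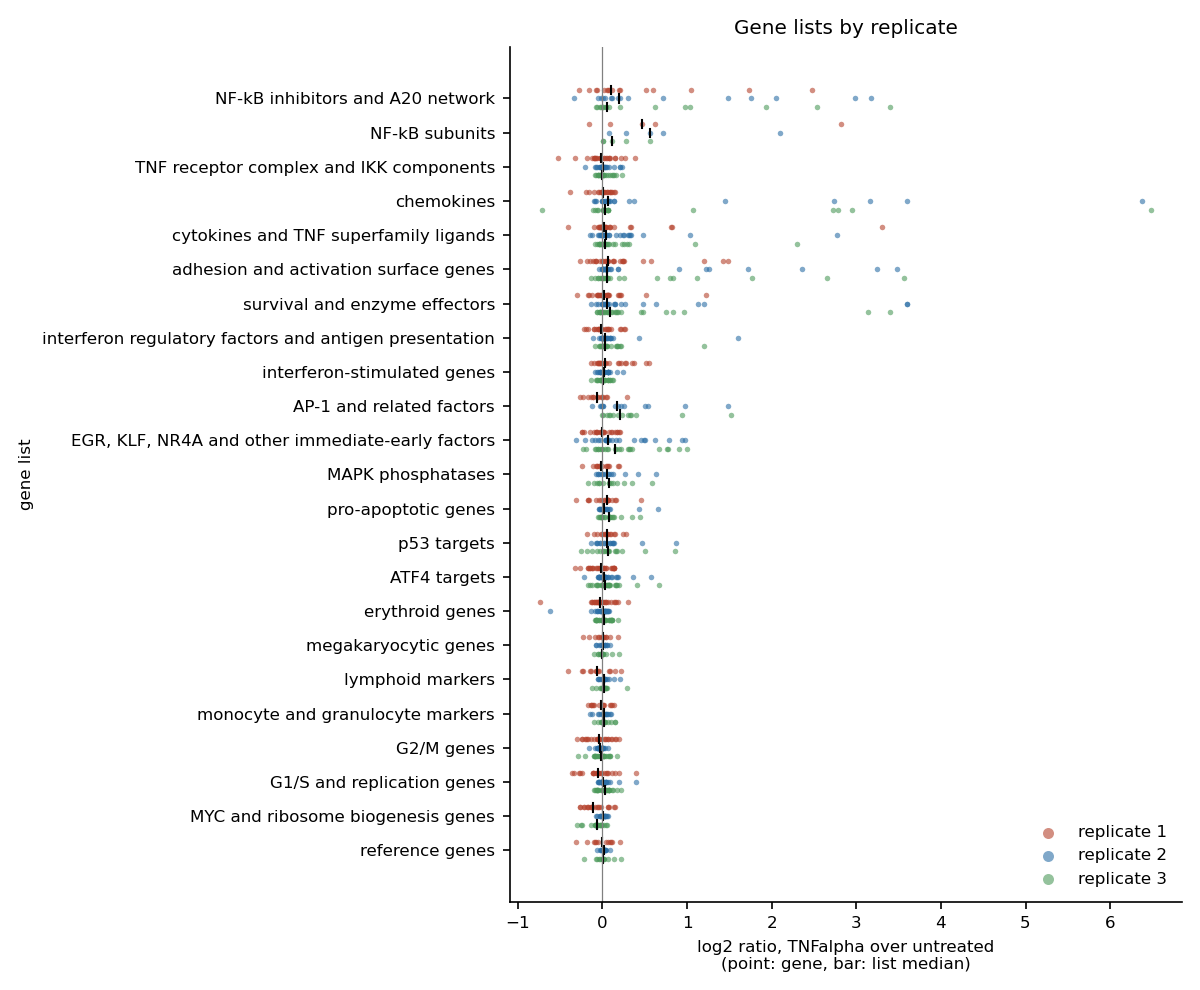
Points are genes of 23 lists (y axis), with their log2 ratio of TNFalpha-treated over untreated cells on the x axis in replicate 1 (red), 2 (blue) and 3 (green), and black bars are list medians per replicate. Ratios above 1 lie in the NF-kB inhibitors, subunits, chemokines, cytokines, surface genes and effectors, and for IRF1, JUN, JUNB and EGR1, while the list medians lie between −0.11 and 0.56.

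Interferon regulatory factors and antigen presentation genes were led by IRF1, a transcription factor induced by interferon and by NF-kB, at −0.21, 1.60 and 1.20. TAP1, a peptide transporter, had smaller and closer ratios of 0.26, 0.43 and 0.21. B2M, the light chain of class I molecules, was at 0.21, 0.09 and 0.22. Of 25 measured genes 18 had a positive mean (against 49.54% of all genes). A higher ratio with an unadjusted p under 0.05 was found for 4 (against 0.944%). Downstream interferon-stimulated genes gave 0 of 24 at that level. In replicate 1 IFIT3 was at 0.51 and XAF1 at 0.55, but in replicates 2 and 3 IFIT3 was at 0.02 and 0.01 and XAF1 at 0.00 and −0.02. The IRF1 window has a kB match 50 bases before the start, and that of NFKBIZ one 223 bases before it.
IRF1, chr5:132490789-132490848, minus strand: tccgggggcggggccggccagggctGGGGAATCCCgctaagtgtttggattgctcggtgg
NFKBIZ, chr3:101827742-101827801, plus strand: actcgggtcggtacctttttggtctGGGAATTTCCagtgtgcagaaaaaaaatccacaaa

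AP-1 is the dimeric factor formed by JUN and FOS proteins and is reached through the MAP kinases. JUNB was at 0.29, 0.98 and 1.52, and JUN at −0.27, 1.48 and 0.94. The 2 features of JUNB had means of 0.63 and 1.23. BATF was at −0.05, 0.51 and 0.30, MAFF at −0.13, 0.54 and 0.40, and FOS at −0.11, 0.22 and 0.33. The medians of the 14 measured genes were −0.06, 0.17 and 0.20 in replicates 1 to 3. The zinc-finger factors EGR3 and KLF6 were at −0.00, 0.94 and 0.90, and at 0.01, 0.97 and 0.78. The 4 features of KLF6 had means from 0.08 to 0.93. EGR1 was at −0.14, 0.50 and 1.01, and ZFP36, which encodes the mRNA-destabilising protein tristetraprolin, at −0.10, 0.49 and 0.77. These factors were near or below 0 in replicate 1 and positive in the others. Of the 25 measured early factors 2 had an unadjusted p under 0.05 and were higher (against 0.944% of all genes). The 14 MAPK phosphatases had 7 means above 0 and 7 below, with a median of 0.01. At an unadjusted p under 0.05, 1 of them was higher (against 0.944% of all genes). This was DUSP10, which acts on JNK and p38, at 0.19, 0.64 and 0.58. DUSP5 and DUSP1 were at 0.05, 0.42 and 0.26 and at 0.06, 0.27 and 0.34. The 2 arrays of DUSP5 in replicate 1 read −0.48 and 0.58.

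Of 20 measured pro-apoptotic genes 2 had an unadjusted p under 0.05, both higher (against 0.944% of all genes). PMAIP1, which encodes the BH3-only protein NOXA, had close ratios of 0.45, 0.66 and 0.44 over 10 features. BBC3, which encodes PUMA, was at 0.07, 0.43 and 0.35, and its 3 features had means from −0.04 to 0.63. Of 17 measured p53 targets 12 had a positive mean (against 49.54% of all genes), with a median of 0.04. At an unadjusted p under 0.05, 2 of the 17 were higher (against 0.944%). They were PLK3, a stress kinase, at −0.00, 0.86 and 0.86, and GADD45A, a p53 target of DNA damage, at 0.05, 0.47 and 0.51. The ATF4 list had 1 higher gene of 32 at that level, against 0.944% of all genes. It was PPP1R15A, the phosphatase subunit GADD34, at 0.13, 0.58 and 0.67.

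K562 cells carry an erythroid programme, and the mean ratios of its genes were small. Of 37 listed erythroid genes 31 were measured, with a median of 0.0017, means from −0.23 to 0.12 and 0 genes at an unadjusted p under 0.05. Over all genes 0.944% were higher and 0.775% lower at that level, so 0 of 31 is near those shares. GATA1, the master factor of the lineage, was at 0.14, −0.01 and 0.03, and the fetal globin gene HBG2 at −0.05, 0.06 and 0.19. In single replicates 2 erythroid genes were 1.5-fold lower (against 0.262% of all genes in replicate 1 and 0.0436% in replicate 2). ZFPM1, the cofactor FOG1 of GATA1, was at −0.73 in replicate 1, where its 2 arrays read −0.71 and −0.76, and at 0.04 and 0.00 in the others. HBM, a globin gene, was at −0.02, −0.62 and 0.02, and its 2 arrays of replicate 2 read −1.50 and 0.25. Megakaryocytic genes had a median of −0.0021 over 13 measured genes, lymphoid markers one of −0.04 over 14, and monocyte and granulocyte markers one of 0.0052 over 14. Their means were above 0 in 6, 4 and 8 genes. CD14 was between 0.01 and 0.11, and CD163 between −0.12 and 0.02. The medians of G2/M genes (27 measured), G1/S and replication genes (25) and MYC and ribosome biogenesis genes (20) were −0.02, −0.01 and −0.04. Their means were above 0 in 6 of 27, 11 of 25 and 2 of 20 genes, against 49.54% of all genes. The first and last of these lists thus leaned lower by small amounts. By replicate the median of the last list was −0.11, 0.01 and −0.06. In the last list UTP20 was at −0.21, −0.03 and −0.25 and NCL, nucleolin, at −0.22, −0.00 and −0.24. The 2 features of NCL had means of −0.30 and −0.01. Reference genes had a median of −0.0098 over 12 measured, with GAPDH at −0.09, 0.03 and −0.06.

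Lower transcripts had small ratios. The 10 lowest genes with a negative ratio on all 6 arrays had means between −0.47 and −0.28 and include the pseudogene GUSBP1 at −0.59, −0.47 and −0.34. The smallest p among them was that of ZNF696, a zinc-finger gene, at −0.33, −0.25 and −0.36 (limma adjusted p = 0.190). FBXO38, a ubiquitin ligase subunit, was at −0.38, −0.17 and −0.43. BAMBI, a decoy receptor of the TGF-beta family, was at −0.10, −0.73 and −0.57 and so was lower mainly in replicates 2 and 3. H4C2, H4C4 and H4C13 shared a pattern of their own. H4C2 was at −0.72, 0.04 and −0.84, but its 2 arrays of replicate 3 read −0.04 and −1.65. Histone H4 genes are nearly identical in sequence, so their features may report each other's transcripts. In replicate 1 the lowest single-replicate ratios included NEUROG3 at −1.01 and SCRT2 at −0.90. Both were positive in replicate 2, at 0.19 and 0.15.

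Of the 37 genes past 1.5-fold in replicate 1 (0.202% of all genes), 24 passed it in no other replicate, among them CD70, TNFSF10 and NFKB1. SGK1, a kinase of salt and stress responses, was at 1.45, −0.42 and −0.35, so the replicates differed in sign. RUNX3, a transcription factor of lymphoid cells, was at 1.32, 0.05 and −0.03, and TRAF4, a signalling adaptor, at 1.12, 0.11 and −0.03. BCL6, a repressor of B cells, was at 0.88, 0.03 and −0.02. The 2 arrays of replicate 1 were close for SGK1 (1.46 and 1.44) and RUNX3 (1.30 and 1.35). For PADI1 they were not, with 2.15 and −0.13. Conversely, 28 of the 37 genes past 1.5-fold in replicates 2 and 3 (0.202% of all genes) were below that fold in replicate 1. Between −0.3 and 0.3 there were 24 of these 37. The SD over all genes in replicate 1 was 0.141, so most genes of any kind lay in that range. In 30 of these 37 the ratio was higher in replicate 2 than in replicate 3, and the share over all genes was not counted. The median over genes of an array's distance from the mean of its pair was 0.0749 in replicate 1, 0.0572 in replicate 2 and 0.0616 in replicate 3. Its part in these differences was not tested.

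The pooled fit also allowed a test of whether a gene's TNFalpha ratio differed from its heteronemin ratio, both against untreated cells, which the 2 ratios share. TNFalpha stood above heteronemin for 53 genes (0.289%) and below it for 50 (0.273%) at a limma adjusted p under 0.05. With a trended and robust prior this count was 0, so the calls depend on that setting. In 21 of the 53 the heteronemin ratio itself was at least 1.5-fold below 0, and only 6 had a TNFalpha mean past 1.5-fold: CD83, BCL3, RGS16, NINJ1, KREMEN2 and ZC3H12A. CD83 was at 2.44 ± 0.93 under TNFalpha and −0.39 ± 0.49 under heteronemin (difference 2.83, adjusted p = 0.0342). BCL3 was at 2.48 ± 0.72 and 0.41 ± 0.35 (2.07, adjusted p = 0.0417). RGS16, a regulator of G-protein signalling, was at 0.54, 1.93 and 1.45 in the TNFalpha replicates. Its means were 1.31 ± 0.71 and −0.62 ± 0.15 (1.93, adjusted p = 0.0359). KREMEN2 differed by 1.25 (adjusted p = 0.0297), NINJ1 by 1.54 (0.0314) and ZC3H12A by 1.08 (0.0285). On the other side, 37 of the 50 genes had a heteronemin ratio past 1.5-fold, led by DDIT3, a stress-induced factor, at 0.07 ± 0.07 (0.02, 0.03 and 0.15) under TNFalpha and 2.42 ± 0.25 under heteronemin (adjusted p = 0.00376). NFKBIA was not called in this test: heteronemin alone gave it a ratio of 0.80 ± 1.06 (adjusted p of the difference = 0.101).

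Cotreated cells were set against TNFalpha-treated cells, the condition measured here, so these cells stand in both ratios with opposite sign. The values of the 9 genes, which were chosen for high TNFalpha ratios, are therefore given side by side without a test. Relative to TNFalpha alone, the mean ratio of cotreated cells was −1.45 ± 1.25 for LTB, −1.44 ± 0.33 for CD83, −1.15 ± 0.30 for IER3, −0.90 ± 0.25 for KREMEN2, −0.72 ± 0.26 for BCL3, −0.71 ± 0.20 for NINJ1 and −0.61 ± 0.33 for ZC3H12A (SD, n = 3 each). NFKBIA was at −0.17 ± 0.34 and TNFAIP3 at 0.13 ± 0.43, close to 0. The largest spread between replicates was that of LTB. Among the 5 high chemokines the means ran from CCL2 at −1.09 ± 1.12 and CXCL1 at −0.61 ± 0.58 over CXCL8 at 0.06 ± 0.05 and CXCL2 at 0.16 ± 0.22 to CXCL3 at 0.48 ± 0.14.

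**Figure D5:**
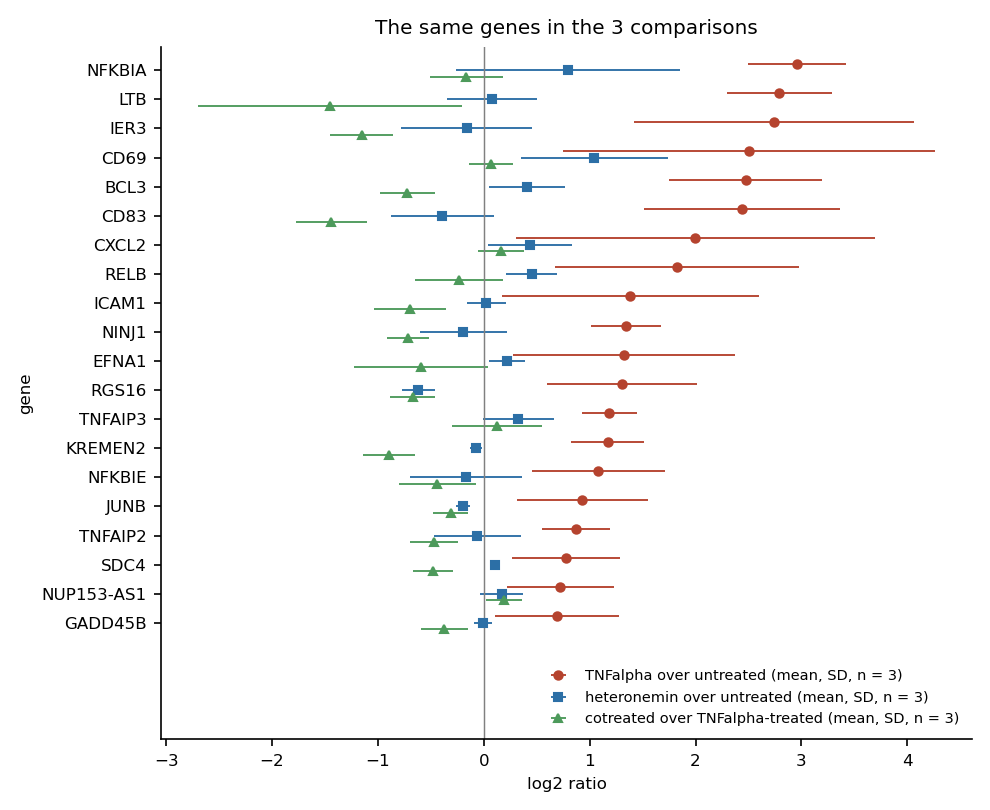
Means and SD (n = 3) of the log2 ratio (x axis) are plotted in the 3 comparisons for the 20 highest genes among those above 0 on all 6 TNFalpha arrays (y axis), which leaves out CXCL1, PLAU, CXCL8, CXCL3 and NFKBIZ, among others. The TNFalpha means (red circles) are above 0.6 for all 20 by the choice of genes, the heteronemin means (blue squares) lie between −0.62 and 1.05, and the cotreated over TNFalpha means (green triangles) are lowest for LTB and CD83.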

How the data were processed

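The deposited table holds 1 value per feature for each array. The authors made it with limma, per the submitters' processing notes. How they corrected the background and normalized, and with which limma version, is not stated in the labels or files. The log2 scale of the deposited values was read from their range and the centring from array medians near 0, and the log base and any scaling between arrays are not stated. Values were taken as treated over control, per the labels' titles and because most named features with large ratios kept their sign when the dyes were exchanged (16, 92 and 67 features over 1 on both arrays of replicates 1 to 3, against 3, 7 and 7 over 1 with opposite signs), so the exchanged arrays had been turned. Features with no single gene went the other way, with 2, 4 and 4 over 1 on both arrays against 80, 265 and 267 over 1 with opposite signs, and stayed out of the tests.

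Of 45220 features, 31332 with 1 gene entry were used. They stood for 18334 genes, and the features of a gene were averaged, as were the 2 arrays of each biological replicate. The 3 comparisons (9 averages) entered 1 model in R 4.3.3 (limma 3.58.1) with a common, moderated spread, 6 residual degrees of freedom and no replicate block. Genes were called at a two-sided Benjamini-Hochberg adjusted p of 0.05. On simulated data made from these values, 96 of 100 genes changed by 1 on the log2 scale and 99 of 100 changed by 2 were called, with 9 unchanged genes called. The simulated noise was independent, and each changed gene had the same shift in all 3 replicates. No replicate stood apart there as replicate 1 does here, so these rates do not carry over to these arrays. Deviations of same-numbered replicates gave no single answer. Their correlations in replicates 1 to 3 were −0.210, 0.0306 and −0.0948 with heteronemin, where untreated cells stand in both denominators. With cotreated cells they were −0.326, −0.220 and −0.274. There TNFalpha-treated cells stand in the denominator, so samples shared by number would give negative values. Whether numbers pair the samples was thus not settled. Alternatives covered the prior, weights, centring, scaling, feature averaging, dye and left-out replicates. Averaging features of 1 accession first was added after seeing the data.

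The members, gene lists and tests were chosen with earlier results of these data known. Named genes were the 20 highest and 10 lowest with 1 sign on all 6 arrays, the 10 with the largest replicate range, up to 4 per list with the smallest p, genes called with the block, and a fixed set (25 of 26 measured). Other genes were named after their values were seen. Intensities were not used here, so the number of arrays limits the precision. Promoter windows come from RefSeq (GRCh38.p14), 1 per symbol.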

Additional observations from a re-analysis of the deposited data

Results flagged for a closer look

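Outside the gene tests, 13888 features had no gene entry or several. Of these, 2 were at least 1.5-fold higher in TNFalpha-treated than in untreated cells on all 6 arrays, and 0 were that much lower on all 6, while 8 features with 1 gene were that much higher. Feature 29898 had a mean log2 ratio of 2.40, with 2.81, 2.91 and 1.47 in replicates 1 to 3. Feature 37622 had a mean of 0.95, with 0.91, 1.02 and 0.92. Neither has a gene entry in the annotation used here, and neither enters a comparison above. Groups of 3 replicates are too small for the test of single outlying samples.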

How the results depend on the processing

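Over the alternatives no named gene's ratio changed direction where the first setting or the alternative called it. Changes of sign among values that neither called were not counted apart. Of the gene values, 102 passed the threshold where the first setting did not, and 1802 passed it in neither. The first setting called 0 genes, so no value could lose a call. The 1802 therefore do not show that the ratios are stable. The numbers of genes called for TNFalpha against untreated (0 in the pooled fit without a block) were 7 with the replicate number as a block, all higher, 6 on these arrays alone, 42 with array weights (40 higher, 2 lower, replicate 1 weighted 0.792 against 2.40 and 1.83), 4 after scaling the arrays to each other, and 4 each with the treated sample in Cy5 only or Cy3 only. Replicate 1 had the lowest weight in the other comparisons too, at 0.225 for heteronemin and 0.142 for cotreated cells. The replicate block (7 calls: BCL3, NFKBIA, IER3, LTB, TNFAIP2, TNFAIP3 and NINJ1) fits 1 shift of the same sign in the 3 comparisons, which the replicate deviations did not show. Whether the numbers pair the samples was not settled. Leaving out 1 replicate gave 0 to 17 calls in this comparison, with 17 without replicate 1, and 0 to 62 when it was left out of all comparisons.

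For the difference from heteronemin, 103 genes were called. The count was 0 with a trended and robust prior, 1305 with array weights, 267 after scaling, 19 with Cy5 only, 13 with Cy3 only, 0 to 29 without 1 replicate here and 0 to 906 without it in all comparisons. Past 1.5-fold in every replicate were 9 to 37 higher genes and 0 to 3 lower genes when 1 replicate was left out, and 1 lower gene with either dye alone. Past 2-fold there were 7 to 20. Of the list medians, 40 moved by more than the spread between replicates and 167 by less. The cause of these differences was not tested.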
